A study of Mus musculus with 217 samples.

Results

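The right striatum and the right cortex of the same 10 wild-type mice were compared at 6 months of age. These 20 libraries, of 217 in the whole series, were chosen by their labels: WT mice labelled MOCK, which had not received IPTG. There was 1 striatal and 1 cortical library per mouse, paired by the mouse number in the column names of the count table. The mice, 5 females and 5 males on a C57BL/6 background, had no mutant huntingtin allele, and their labelled genotype was Hdh(LacO-+/+) with the beta-actin-LacIR transgene, a Lac repressor driven by the ubiquitous beta-actin promoter that every group of the study shares. IPTG is the inducer that releases the repressor. The mice were the controls without IPTG of a study of Huntington's disease in which expression of a mutant huntingtin allele was lowered at different ages. The comparison made here describes the 2 normal brain regions side by side.

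The striatum is the input nucleus of the basal ganglia. Most of its neurons are GABAergic spiny projection neurons, which receive glutamate from the cortex and thalamus and dopamine from the midbrain. Direct pathway neurons carry the D1 dopamine receptor and make substance P and dynorphin, whereas indirect pathway neurons carry the D2 dopamine and A2a adenosine receptors and make enkephalin. The cortex is a layered tissue of glutamatergic projection neurons and GABAergic interneurons. The 2 sets of projection neurons descend from different parts of the embryonic telencephalon, the pallium for the cortex and the subpallium for the striatum, and each keeps some transcription factors of its origin in the adult.

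Cortical libraries held 40334446 to 68038785 counts (median, 51260622) and striatal libraries 45018717 to 62867692 counts (median, 50373580). Values below are CPM, each count scaled to a common library total after adjusting library sizes by TMM, and a fold change is the log2 ratio of striatum to cortex within mice, so that a negative value means higher in cortex. All 20 libraries matched their labelled sex. Some libraries stood apart: the striatum of male 5 had the lowest summed level of spiny neuron markers (11525 CPM against a median of 15564) and the highest Slc17a7, the cortex of male 4 had the highest summed hemoglobin and Alas2 level (1773 CPM against a median of 346), the cortex of male 3 had the highest summed choroid plexus level (173 CPM against a median of 20.1), and the cortex of female 3 had the highest Gad2 (171 CPM) and the lowest Slc17a7 (861 CPM) of its region. The mice to leave out were chosen after seeing the data. Without male 3, male 4 and male 5, 10063 genes were called instead of 10499, and log2 fold changes were 5.89 for Drd2, 4.27 for Ppp1r1b, -6.62 for Slc17a7 and -5.75 for Bdnf. Without female 3, male 4 and male 5, 10126 genes were called, with log2 fold changes of 6.16 for Drd2, 4.29 for Ppp1r1b, -6.59 for Slc17a7 and -5.69 for Bdnf. In whole tissue, fewer cells of a type and less RNA per cell cannot be told apart, so each level below is that of the dissected region.

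Calls required a difference of at least 20% between the regions and a p-value under 0.05 after Benjamini-Hochberg adjustment over all genes. Of 33399 genes tested, 4937 were called higher in striatum (14.8%) and 5562 higher in cortex (16.7%). Which region had more calls was not stable. Without male 4 the counts were 5320 in striatum and 5229 in cortex, and with scaling by total counts only 5686 and 4846. Differences of at least 4-fold were called for 601 genes higher in striatum (1.8%) and 1054 higher in cortex (3.16%). In 1770 genes (5.3%) every striatal library lay above every cortical one, and in 2205 genes (6.6%) every cortical library lay above every striatal one. Among the 13434 genes with a mean of at least 1 on the log2 CPM scale, the median absolute log2 fold change was 0.27 and the median SE was 0.08, and 23.7% were called higher in striatum and 25.9% in cortex, 156 and 202 of them at least 4-fold. The lists of genes below hold mostly expressed genes, so their counts are read against these shares as well as those over all genes tested. Genes at least 4-fold higher in striatum took 2.38% to 3.53% of the counts of striatal libraries (median, 3.10%) and 0.304% to 0.443% of cortical ones (median, 0.372%). The corresponding cortical genes took 1.57% to 1.89% of cortical counts (median, 1.74%) and 0.245% to 0.355% of striatal ones (median, 0.267%). Few genes separated the regions by a large factor, while smaller differences were spread over the transcriptome.

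**Figure D1:**
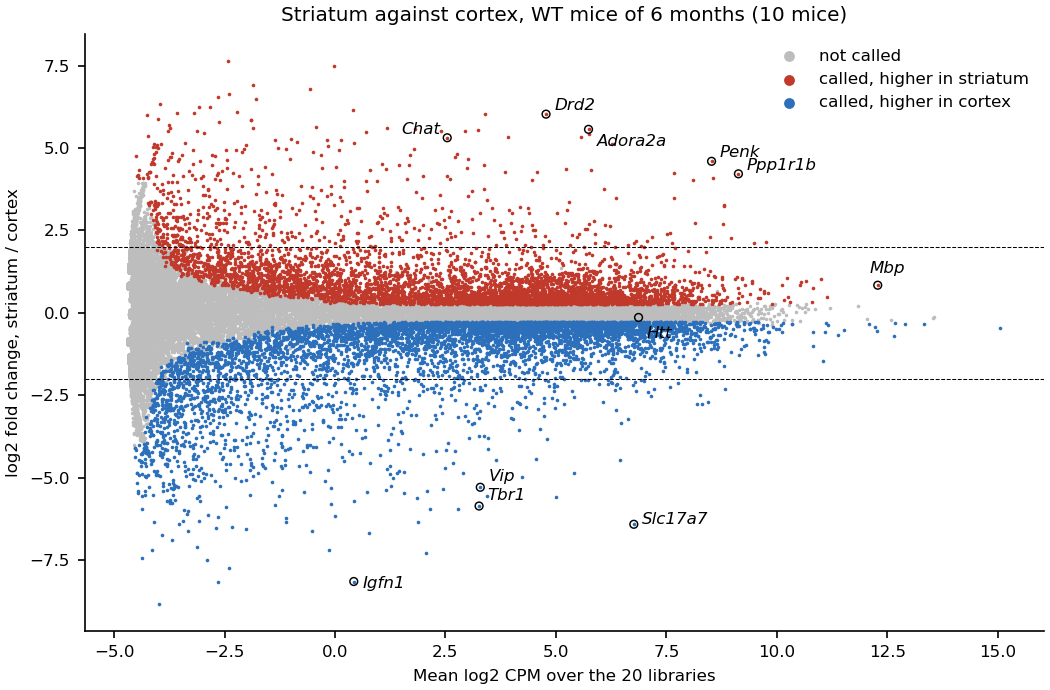
Each point is 1 of the 33399 genes tested, by its mean log2 CPM over the 20 libraries (horizontal axis) and its log2 fold change, striatum over cortex (vertical axis); red and blue points were called higher in striatum (4937) and in cortex (5562), and dashed lines mark 4-fold. Drd2, Adora2a, Penk and Ppp1r1b lie at the upper edge and Slc17a7, Tbr1 and Vip at the lower edge, while Htt lies near 0.

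Markers shared by both kinds of spiny projection neuron were higher in striatum without exception. All 20 of 20 listed genes were called, 17 of them at least 4-fold, with a median log2 fold change of 2.96 against 0.00 over all genes tested. Their summed level was 11525 to 18916 CPM (median, 15564) in striatum and 1679 to 2222 CPM (median, 1938) in cortex. Ppp1r1b, which encodes the dopamine- and cAMP-regulated phosphatase inhibitor DARPP-32 (chr11:98348404-98357796, plus strand, GRCm38), ranged from 1584 to 3141 CPM (median, 2500.1) in striatum and from 82.1 to 192 CPM (median, 129) in cortex. The lowest striatal value belonged to male 5 and still lay far above the highest cortical value, and the log2 fold change was 4.22 ± 0.09 (SE) with an adjusted p of 3.96e-17. Rgs9, a regulator of G protein signalling that shortens dopamine receptor responses, ranged from 328 to 553 CPM (median, 463) in striatum and from 7.59 to 21.8 CPM (median, 15.2) in cortex, and its log2 fold change of 5.12 ± 0.14 (SE) was the largest of the list. The phosphodiesterase Pde10a ranged from 859 to 1445 CPM (median, 1102) in striatum and from 50.03 to 105 CPM (median, 64.6) in cortex, a log2 fold change of 4.04 ± 0.12 (SE). None of these 3 genes overlapped between the regions. Differences were smaller for Adcy5, the main striatal adenylyl cyclase (2.69), and for Gnal, the G protein alpha subunit that couples D1 and A2a receptors to it (1.85).

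Indirect pathway genes had the largest median fold change in the striatal direction of the 48 lists examined. Of 6 markers tested (Gpr52, the seventh, was not matched to a row), 5 were called higher in striatum, all at least 4-fold, and the median log2 fold change was 4.96. The D2 receptor gene Drd2 (chr9:49340627-49408177, plus strand) ranged from 163 to 286 CPM (median, 231) in striatum and from 1.12 to 7.52 CPM (median, 3.58) in cortex. The lowest striatal library lay far above the highest cortical one, and the log2 fold change was 6.03 ± 0.23 (SE) with an adjusted p of 1.44e-13, the largest among protein-coding genes whose log2 CPM averaged 1 or more. Adora2a, the A2a receptor, ranged from 259 to 443 CPM (median, 385) in striatum and from 2.38 to 19.9 CPM (median, 8.27) in cortex, with a log2 fold change of 5.57 ± 0.20 (SE). Gpr6, an orphan receptor that signals constitutively through cAMP, ranged from 75.1 to 119 CPM (median, 93.9) in striatum and from 1.15 to 4.12 CPM (median, 2.62) in cortex, with a log2 fold change of 5.32 ± 0.14 (SE). Penk, the enkephalin precursor, was the most abundant of the set, from 1515 to 2110.1 CPM (median, 1827) in striatum and from 48.04 to 122 CPM (median, 76.3) in cortex, with a log2 fold change of 4.6 ± 0.13 (SE). Regions did not overlap for any of these 4 genes. The transcription factor Sp9 was also higher in striatum (2.2), whereas Plxdc1 was higher in cortex (-0.51).

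Direct pathway markers were higher in striatum for 7 of 8 genes, with a median log2 fold change of 3.1; Sfxn1, the eighth, was not called (0.11). The D1 receptor gene Drd1 (chr13:54051183-54055705, minus strand) ranged from 217 to 297 CPM (median, 242) in striatum and from 9.21 to 20.7 CPM (median, 12.2) in cortex, a log2 fold change of 4.33 ± 0.12 (SE) with an adjusted p of 1.88e-15. Tac1, the substance P precursor, ranged from 229 to 312 CPM (median, 278) in striatum and from 15.1 to 38.5 CPM (median, 24.8) in cortex, a log2 fold change of 3.5 ± 0.16 (SE). Pdyn, the dynorphin precursor, ranged from 118 to 157 CPM (median, 137) in striatum and from 15.9 to 26.6 CPM (median, 21.1) in cortex, a log2 fold change of 2.7 ± 0.09 (SE). The regions were again fully apart for all 3 genes. Their median cortical levels were above those of the indirect pathway receptors Drd2, Adora2a and Gpr6 and below that of Penk. Per kilobase of merged exon, the mean striatal level was 68.5 CPM for Drd1 and 90.9 for Drd2, and the mean cortical level was 3.499 for Drd1 and 1.54 for Drd2. Drd2 was the higher of the pair in striatum and Drd1 in cortex, as a comparison of means per length. The largest fold change of the list was that of Slc35d3, a transporter-like protein of the nucleotide sugar family (4.72), followed by the LIM homeobox factor Isl1 (4.47).

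Genes that divide the striatum into striosome and matrix compartments were mostly higher in striatum, none of them by 4-fold. Of 9 markers, 6 were higher in striatum and 1 in cortex, and the median log2 fold change was 0.54. Their summed level was 589 to 695 CPM (median, 658) in striatum and 388 to 573 CPM (median, 438) in cortex, without overlap. The largest difference was that of Id4, a matrix marker of the inhibitor of DNA binding family, with medians of 152 CPM in striatum and 64.4 in cortex (1.19). The mu opioid receptor Oprm1, a striosome marker, had a median of 1.37 CPM in striatum and 0.524 in cortex (log2 fold change 1.17). The calcium-binding protein Calb1, also a matrix marker, had medians of 179 and 94.3 CPM (0.83), and the potassium channel interacting protein Kcnip1 was higher in cortex (-0.73).

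Cholinergic interneurons are sparse but large cells of the striatum, and all 8 of 8 of their markers were at least 4-fold higher there, with a median log2 fold change of 4.44. Their summed level was 168 to 229.8 CPM (median, 200.1) in striatum and 7.61 to 20.6 CPM (median, 14.2) in cortex. Chat, which makes acetylcholine, ranged from 34.8 to 48.04 CPM (median, 40.7) in striatum and from 0.178 to 2.03 CPM (median, 1.36) in cortex, a log2 fold change of 5.31 ± 0.25 (SE) with an adjusted p of 2.13e-12. The regions did not overlap for Chat. The vesicular and plasma membrane transporters for acetylcholine and choline followed (Slc18a3, 4.53; Slc5a7, 4.67), as did the vesicular glutamate transporter Slc17a8 (3.08), which these neurons also carry. Nkx2-1, a factor of the embryonic ganglionic eminence that also marks neurons of the globus pallidus, had medians of 4.17 CPM in striatum and 0.176 in cortex (4.42).

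**Figure D2:**
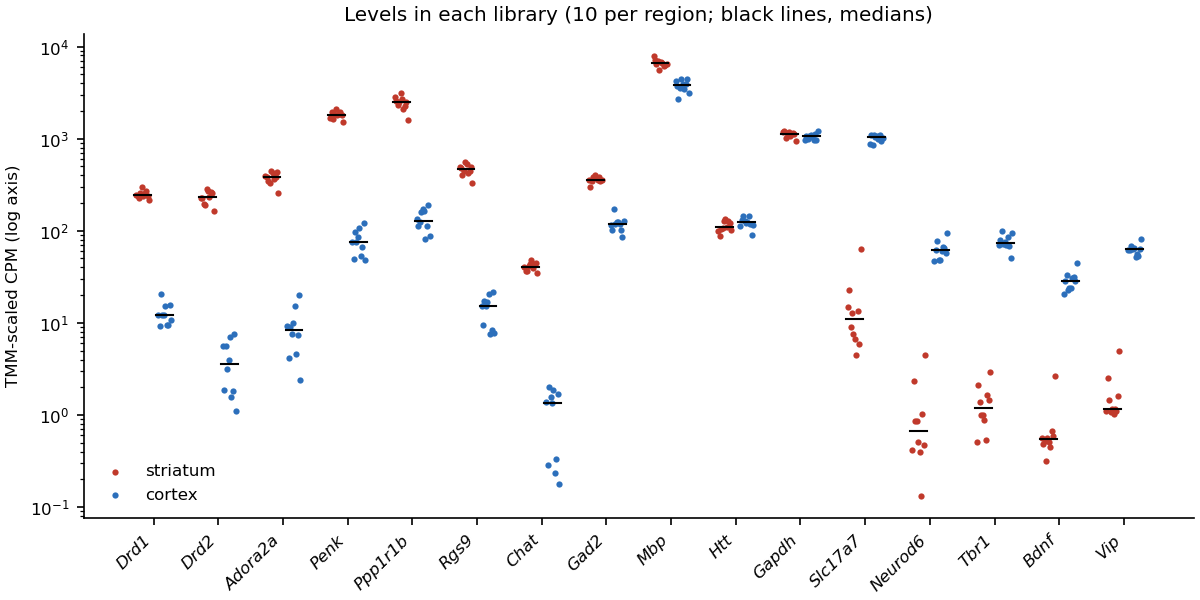
Level of 16 genes in each of the 20 libraries, in TMM-scaled CPM on a log axis; red points are striatal and blue points cortical libraries (10 each), and black lines are medians. The regions are fully apart for all genes but Htt and Gapdh, and the highest red points of Slc17a7, Neurod6, Tbr1, Bdnf and Vip are the striatum of male 5.

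Markers of cortical glutamatergic neurons were mostly higher in cortex. Of 15 genes, 13 were higher in cortex and 10 of these at least 4-fold, with a median log2 fold change of -5.37. Their summed level was 3118 to 3650.2 CPM (median, 3319) in striatum and 6126 to 6863 CPM (median, 6519) in cortex, without overlap. Slc17a7 (chr7:45163949-45176142, plus strand), the vesicular glutamate transporter of cortical projection neurons, ranged from 4.46 to 63.7 CPM (median, 10.97) in striatum and from 861 to 1106 CPM (median, 1029) in cortex, a log2 fold change of -6.41 ± 0.30 (SE) with an adjusted p of 2.53e-12. The highest striatal value was that of male 5, and the regions did not overlap. Neurod6, a neuronal bHLH factor, ranged from 0.133 to 4.45 CPM (median, 0.679) in striatum and from 46.7 to 95.4 CPM (median, 61.5) in cortex, a log2 fold change of -5.96 ± 0.26 (SE). Nrn1 (neuritin, -5.57) and Slc30a3, the zinc transporter of glutamatergic vesicles (-5.54), behaved alike in sign and size. Cck, a peptide made by cortical pyramidal cells and interneurons alike, had medians of 6.63 CPM in striatum and 225 in cortex (-4.85). Exceptions were Baiap2, a postsynaptic scaffold protein, which was higher in striatum (1.41), and Nrgn, neurogranin, which was not called (-0.03), both of which spiny neurons also express.

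Markers of single cortical layers differed by much less than the shared ones, and some were higher in striatum. Layers 2 and 3 had 6 of 8 markers higher in cortex (median -1.31) and layer 4 had 5 of 5 (median -0.80). Cux2, a homeobox gene of upper layers, ranged from 9.46 to 14.4 CPM (median, 13.02) in striatum and from 52.3 to 90.8 CPM (median, 79.4) in cortex (-2.58 ± 0.11 (SE)), and Rorb, the layer 4 orphan receptor, from 9.74 to 15.02 CPM (median, 13.2) and from 23.1 to 45.5 CPM (median, 32.3) (-1.4 ± 0.10 (SE)). For layer 5, 3 of 10 markers were higher in cortex and 3 in striatum (median -0.03). Fezf2, which specifies subcerebral projection neurons, ranged from 2.11 to 3.17 CPM (median, 2.45) in striatum and from 19.9 to 27.8 CPM (median, 22.4) in cortex (-3.14 ± 0.08 (SE)). In the same list the calmodulin regulator Pcp4 had medians of 1065 CPM in striatum and 223 in cortex (2.27), and Pou3f1 (1.6) and the thyroid hormone binding protein Crym (1.35) were likewise higher in striatum. For layer 6 and the subplate, 7 of 10 markers were higher in cortex and 3 in striatum (median -1.63). The subplate and claustrum factor Nr4a2 was the most cortical (-4.85), while Foxp2 ranged from 31.05 to 43.6 CPM (median, 36.8) in striatum and from 6.18 to 12.8 CPM (median, 7.25) in cortex (2.23 ± 0.12 (SE)) and Syt6 was also higher in striatum (3.04). Pcp4 and Foxp2 are also known from spiny projection neurons.

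GABAergic interneurons inhabit both regions, and their markers split: 6 of 16 were higher in striatum and 8 in cortex, with a median log2 fold change of -0.26. Vip, the peptide of an interneuron class of the cortex (chr10:5639218-5647617, plus strand), ranged from 1.03 to 5.01 CPM (median, 1.17) in striatum and from 52.2 to 80.7 CPM (median, 63.2) in cortex, a log2 fold change of -5.29 ± 0.16 (SE) with an adjusted p of 7.37e-15. Htr3a, the ionotropic serotonin receptor that marks the same lineage, was also higher in cortex (-1.95). Sst ranged from 185 to 245 CPM (median, 214) in striatum and from 115 to 274 CPM (median, 218) in cortex, and the regions overlapped (0.12 ± 0.11 (SE) with an adjusted p of 0.493). Pvalb, the calcium-binding protein of fast-spiking cells, ranged from 38.2 to 154 CPM (median, 80.1) in striatum and from 77.9 to 113 CPM (median, 93.6) in cortex, again with overlap (-0.25 ± 0.17 (SE) with an adjusted p of 0.318). Markers of other interneuron classes, tyrosine hydroxylase (1.96) and Pthlh (1.73), were higher in striatum. GABA synthesis and transport as a whole was higher in striatum for 4 of 7 genes and in cortex for 1 (median 0.84). Gad2, which makes GABA for release, ranged from 297 to 399 CPM (median, 357) in striatum and from 85.9 to 171 CPM (median, 119) in cortex (1.61 ± 0.08 (SE)), and the vesicular GABA transporter Slc32a1 had a log2 fold change of 2.11. Slc6a13, a GABA transporter of the meninges, was the cortical exception (-1.6).

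Transcription factors of the 2 embryonic territories remained apart in the adult. Of 24 subpallial factors, 17 were higher in striatum, 13 at least 4-fold, and 3 in cortex (median 2.16). Six3, a homeobox factor of the lateral ganglionic eminence, ranged from 31.3 to 50.6 CPM (median, 38.04) in striatum and from 0.162 to 2.58 CPM (median, 1.45) in cortex (4.82 ± 0.19 (SE)). Meis2, a more abundant homeobox factor of the same territory, ranged from 339 to 494 CPM (median, 406) in striatum and from 84.8 to 112 CPM (median, 93.4) in cortex (2.11 ± 0.07 (SE)). Isl1 (4.47), Lhx8 (4.36), Dlx5 (2.43) and Ebf1 (1.54) had the same direction. Dlx1 (-0.95) and Sp8 (-0.78) were higher in cortex, and Dlx2 was not called (0.03); all 3 are also expressed by cortical interneurons or precursor cells. Of 21 pallial factors, 18 were higher in cortex, 10 at least 4-fold, and 1 in striatum (median -1.44).

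Among the pallial factors, Tbr1, a T-box factor of deep layer neurons, ranged from 0.504 to 2.96 CPM (median, 1.205) in striatum and from 50.8 to 98.6 CPM (median, 74.1) in cortex (-5.86 ± 0.18 (SE)). Neurod2, a bHLH factor of differentiated glutamatergic neurons, ranged from 0.152 to 2.36 CPM (median, 0.446) in striatum and from 29.9 to 50.3 CPM (median, 38.3) in cortex (-5.95 ± 0.26 (SE)). Every cortical library exceeded every striatal library for both genes, and the highest striatal library was male 5 for both. Retinoic acid signalling, which patterns the embryonic striatum, was marked by 3 genes with large differences: the receptors Rxrg (4.36) and Rarb (4.28) and the binding protein Crabp1 (4.07). In total 8 of its 15 genes were higher in striatum and 3 in cortex (median 0.33), the latter including the synthetic enzymes Aldh1a2 (-2.29) and Aldh1a3 (-1.7). Aldh1a1, of the same enzyme family, was higher in striatum (0.325).

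The promoters of 4 genes with the region differences above are shown as RefSeq gives them on GRCm38.p6, each from 250 bases before to 50 bases after an annotated start. A pair is higher in striatum and a pair in cortex, and capitals mark textbook motifs found on either strand: the cyclic AMP response element TGACGTCA, an E-box of the type bound by NeuroD factors, CAGATG, and the GC box GGGCGG, whose reverse complement is CCGCCC. Drd2 (striatum) is at chr9:49340153-49340452, plus strand, Gpr6 (striatum) at chr10:41072241-41072540, minus strand, Slc17a7 (cortex) at chr7:45163671-45163970, plus strand, and Neurod2 (cortex) at chr11:98329596-98329895, minus strand.
Drd2: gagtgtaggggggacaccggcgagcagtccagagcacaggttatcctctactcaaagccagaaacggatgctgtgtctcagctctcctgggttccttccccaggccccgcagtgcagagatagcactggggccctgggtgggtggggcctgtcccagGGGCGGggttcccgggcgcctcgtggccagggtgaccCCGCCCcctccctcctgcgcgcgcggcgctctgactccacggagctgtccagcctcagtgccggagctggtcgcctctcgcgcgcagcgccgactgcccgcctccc
Gpr6: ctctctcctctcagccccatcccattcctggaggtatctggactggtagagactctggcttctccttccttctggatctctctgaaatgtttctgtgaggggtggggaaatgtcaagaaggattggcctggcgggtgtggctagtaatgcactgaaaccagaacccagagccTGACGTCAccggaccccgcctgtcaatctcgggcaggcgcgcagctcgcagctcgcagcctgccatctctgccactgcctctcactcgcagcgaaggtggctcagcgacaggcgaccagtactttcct
Slc17a7: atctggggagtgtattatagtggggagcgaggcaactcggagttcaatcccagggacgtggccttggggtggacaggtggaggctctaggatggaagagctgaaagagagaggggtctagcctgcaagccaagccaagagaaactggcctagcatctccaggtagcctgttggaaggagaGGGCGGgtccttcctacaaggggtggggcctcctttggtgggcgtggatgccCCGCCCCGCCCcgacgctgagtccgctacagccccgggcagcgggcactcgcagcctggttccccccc
Neurod2: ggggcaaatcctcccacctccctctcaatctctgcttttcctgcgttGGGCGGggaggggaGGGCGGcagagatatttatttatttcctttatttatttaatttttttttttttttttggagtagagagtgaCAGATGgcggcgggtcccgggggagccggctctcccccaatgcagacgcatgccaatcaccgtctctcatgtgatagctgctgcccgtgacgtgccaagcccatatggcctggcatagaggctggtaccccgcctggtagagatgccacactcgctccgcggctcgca
Gpr6 has a cyclic AMP response element starting 78 bases before the start, Drd2 has GC boxes 93 and 56 bases before it, and Slc17a7 has GC boxes at 70, 18 and 13 bases, the last pair overlapping. Neurod2 has its E-box 118 bases and its GC boxes 203 and 189 bases before the start. All distances are from the RefSeq start, which for Drd2 lies upstream of the GENCODE gene start given above.

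The share of promoters that held each motif was counted for both sets of region genes and for all windows, as a description. Of protein-coding genes at least 4-fold apart whose log2 CPM averaged 1 or more over the libraries, 110 of 145 striatal and 144 of 192 cortical genes had windows. The cyclic AMP response element was found in 1.79% of all 32851 windows, 0.654% of the 153 striatal windows and 1.48% of the 203 cortical ones. The only striatal window with it was that of Gpr6 shown above. CAGATG was found in 17.2%, 13.7% and 16.3%, and GGGCGG in 35.7%, 51.6% and 45.3%, respectively. The median GC share of the windows differed in the same order, with 52.7% over all, 58.3% for striatal and 57.7% for cortical genes, and its part in the GC box shares was not tested.

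Receptors for the transmitters that modulate the striatum were led by the dopamine receptors, of which 4 of 5 were higher in striatum and none in cortex (median 2.91). Beside Drd1 and Drd2, the low-abundance Drd3 (0.829 against 0.116 CPM at the median, 2.91) and Drd5 (1.43) were called, and Drd4 was not (-0.06). Muscarinic acetylcholine receptors split by subtype, 2 of 5 higher in striatum and 1 in cortex, with Chrm4, which direct pathway neurons carry, and the low-abundance Chrm5 higher in striatum (1.61 and 1.36), Chrm3 higher in cortex (-2.14), and Chrm1 (0.04) and Chrm2 (-0.13) not called. All 3 classical opioid receptors were higher in striatum, Oprk1 by the most (1.74), and the nociceptin receptor Oprl1 was higher in cortex (-0.70). Cnr1, the CB1 cannabinoid receptor of presynaptic terminals, ranged from 167 to 254 CPM (median, 197) in striatum and from 61.2 to 123 CPM (median, 80.5) in cortex (1.2 ± 0.12 (SE)), without overlap, whereas the A1 adenosine receptor Adora1 was higher in cortex (-0.55). Serotonin receptors were evenly divided, 6 of 14 higher in each region. Htr1d (3.65) and Htr1b (3.19), which act on axon terminals, were the most striatal, and Htr1a the most cortical (-2.31).

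Receptors for glutamate and GABA differed by subunit more than as groups. Of 11 AMPA and NMDA receptor subunits, 3 were higher in striatum and 3 in cortex, near the shares of all expressed genes (median -0.13); Gria1 (0.67), Grin1 (0.48) and the low-abundance Grin3b (0.651 against 0.138 CPM at the median, 2.31) were on the striatal side and Grin2a (-0.82) and Grin3a (-1.02) on the cortical side. Among 13 kainate and metabotropic receptors, 8 were higher in striatum and 4 in cortex (median 0.28), led by Grm4 (1.96) and Grik2 (1.37) in striatum and by the presynaptic autoreceptor Grm2 in cortex (-4.2). Of 15 GABA-A receptor subunits, 3 were higher in striatum and 6 in cortex (median -0.13). The delta subunit Gabrd, of extrasynaptic receptors, was the most striatal (1.31), and Gabra3 (-1.96) and Gabra5 (-1.53) were cortical. Glutamate synthesis and transport was cortical for 6 of 8 genes and striatal for 2 (median -0.59), including the astrocyte transporter Slc1a2 (-0.67).

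Families of signalling enzymes and G proteins had members called in both directions. Phosphodiesterases were higher in striatum for 11 of 18 genes and in cortex for 5 (median 0.38), from Pde10a, Pde1b (3.28) and Pde7b (2.66) in striatum to Pde1a (-2.35) in cortex. Cyclases were striatal for 4 of 12 and cortical for 6, with Adcy5 (1107 against 174 CPM at the median) and Adcy1 (207 against 1039; -2.31) exchanging places. G protein subunits were cortical for 11 of 19 and striatal for 5 (median -0.48), including the general stimulatory subunit Gnas (-1.24), while its striatal counterpart Gnal and the gamma subunit Gng7 (3.24) were striatal. Regulators of G protein signalling were divided, 9 of 18 striatal and 8 cortical. Of 11 calcium and calmodulin kinases, 5 were cortical and 3 striatal, and Camk2a, an abundant postsynaptic kinase, ranged from 1095 to 1503 CPM (median, 1264) in striatum and from 2869.7 to 4295 CPM (median, 3590.1) in cortex (-1.47 ± 0.06 (SE)). Voltage-gated sodium channels were striatal for 5 of 9 and cortical for 2, led by the beta subunit Scn4b (4.08).

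Neuropeptide precursors were cortical for 10 of 17 and striatal for 5 (median -0.96). The striatal side held Penk, Tac1 and Pdyn, together with Gal (1.94) and Nts (0.71), and the cortical side was led by Vip, Cck and Adcyap1, the PACAP precursor (-5.24). Neurotrophins and their receptors were divided between the regions, 3 of 8 higher in striatum and 4 in cortex. Bdnf, the neurotrophin that cortical neurons supply to the striatum along their axons, ranged from 0.314 to 2.67 CPM (median, 0.547) in striatum and from 20.5 to 44.9 CPM (median, 28.3) in cortex, a log2 fold change of -5.4 ± 0.16 (SE). Male 5 was the highest library in each region for Bdnf, and the regions did not overlap. Ntf3 had the same direction (-3.37). The receptor Ngfr (2.73) was striatal, and the receptor of BDNF, Ntrk2, was slightly cortical (-0.37). Immediate early genes, which neuronal activity induces, were higher in striatum for 6 of 15 and in cortex for 7 (median 0.23), from Egr4 (1.0) and Egr2 (0.95) to Fos (-1.11) and Ier2 (-1.98).

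Cell types other than neurons also differed between the dissected regions. Genes of oligodendrocytes and myelin were higher in striatum, which is crossed by fibre bundles, for 12 of 12 genes, none by 4-fold, with a median log2 fold change of 1.0. Their summed level was 11055 to 15790.2 CPM (median, 13632) in striatum and 6049.7 to 7915 CPM (median, 7148) in cortex, with no overlap. Mbp, myelin basic protein, ranged from 5589.8 to 7936 CPM (median, 6608) in striatum and from 2678 to 4441 CPM (median, 3827) in cortex (0.84 ± 0.08 (SE) with an adjusted p of 4.47e-08). Astrocyte genes were higher in cortex for 9 of 12 (median -0.42), among them Aqp4 (-0.68) and Gjb6 (-0.89), a direction that turned in WT mice of 12 months. Agt, angiotensinogen, was the astrocyte gene of the list higher in striatum, from 27.8 to 58.1 CPM (median, 40.6) in striatum and from 9.53 to 36.4 CPM (median, 17.3) in cortex with overlap (1.14 ± 0.16 (SE), higher in striatum in 9 of 10 mice). Microglial genes differed little, with 4 of 10 higher in striatum, led by Trem2 (0.48), and the defining markers Tmem119 (-0.01) and P2ry12 (-0.14) not called. Endothelial and pericyte genes were higher in cortex for 6 of 10 (median -0.37).

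Markers of structures next to the dissected tissue were also counted. Meningeal genes were higher in cortex for 7 of 7 (median -1.6), with sums of 49.5 to 62.3 CPM (median, 55.1) in striatum and 124 to 179 CPM (median, 159) in cortex. Ependymal genes, from the ventricle wall that borders the striatum, were higher in striatum for 6 of 7 (median 1.16), among them Foxj1 (1.41). Of 7 choroid plexus genes 2 were higher in striatum and 1 in cortex, and Ttr was not called (-0.43). The list for neurons of the globus pallidus and septum did not move in 1 direction, with Nkx2-1, Gbx1 (3.19) and Zic1 (0.59) striatal and Slc17a6 (-2.78), Zic2 (-1.46), Npas1 (-1.01) and Trpc4 (-0.93) cortical. Its sums of 33.6 to 52.3 CPM (median, 38.7) in striatum and 54.1 to 74.2 CPM (median, 60.6) in cortex are therefore not a level of those neurons. Hippocampal markers were cortical for 4 of 6, with Lct (-3.3) and Ocm (-3.16) at low levels, and striatal for Prox1 (0.69) and Dsp (1.22). Their sums were 13.7 to 23.2 CPM (median, 19.1) in striatum and 11.1 to 18.8 CPM (median, 15.8) in cortex, with overlap. Blood genes were not called but for Alas2 (-0.58). The labelled tissues held their own defining markers in all 20 libraries, and the part of neighbouring tissue in the differences above was not tested.

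**Figure D3:**
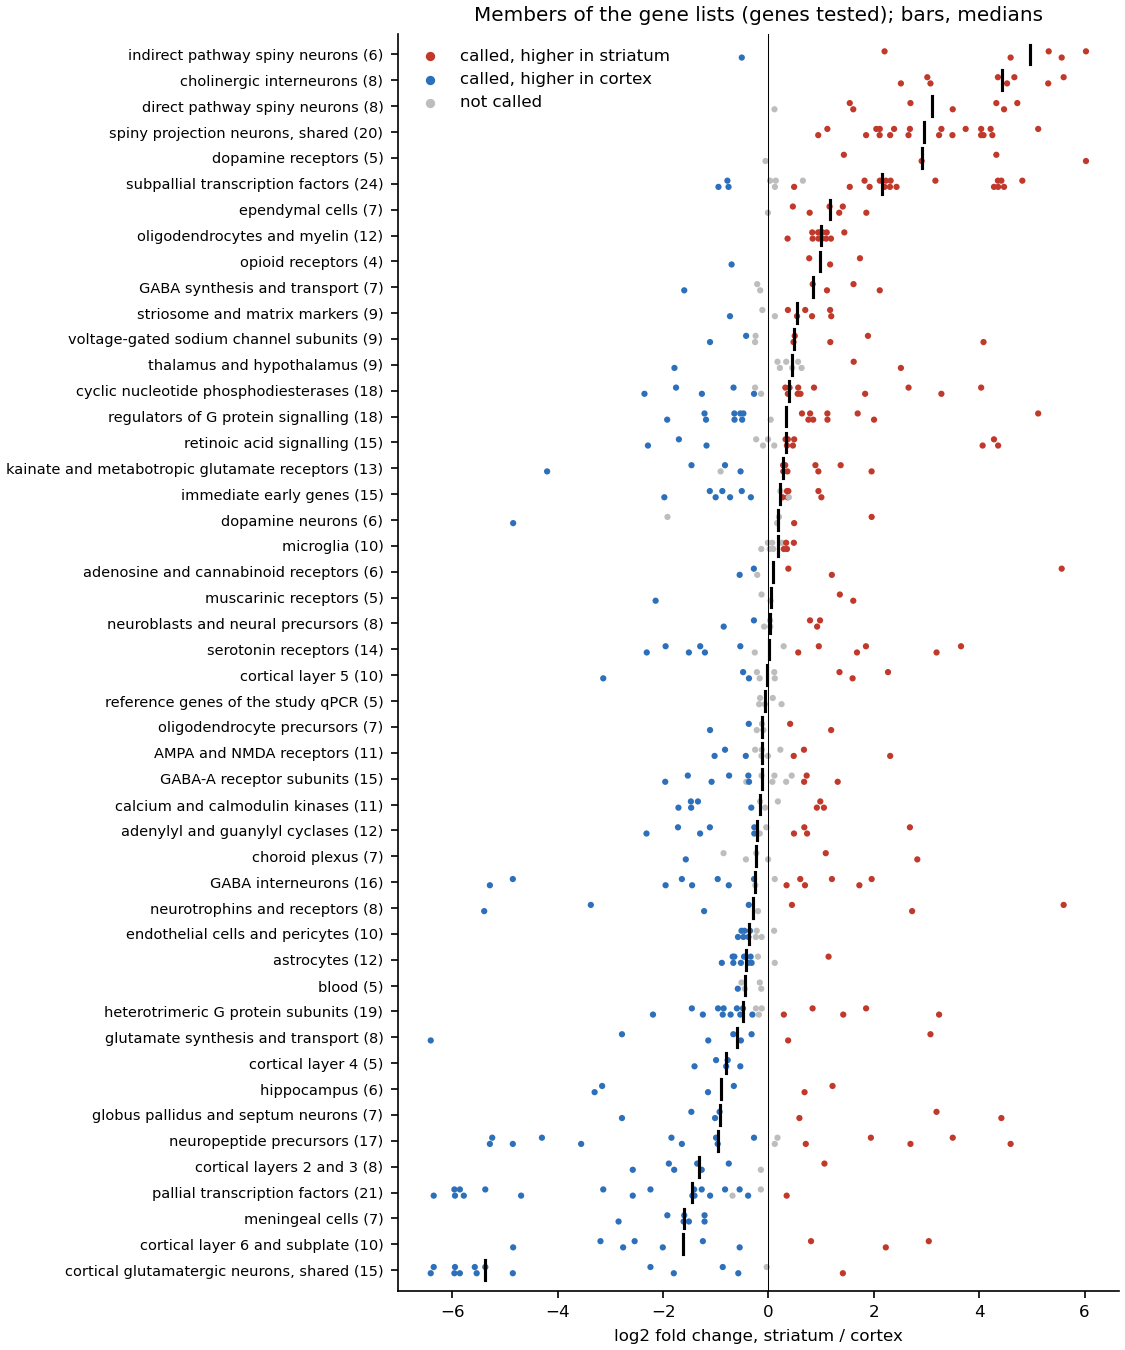
Log2 fold change, striatum over cortex (horizontal axis), of each member of the 48 gene lists, with the number of members tested in parentheses; red and blue points were called higher in striatum and in cortex, grey points were not called, and black bars are list medians. Lists of spiny and cholinergic neurons lie at the top and cortical glutamatergic neurons at the bottom, with most other lists straddling 0.

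Other genes with large differences stood outside these lists. Cd4, better known as a co-receptor of helper T cells, ranged from 53.5 to 117 CPM in striatum and from 0.421 to 2.42 CPM in cortex (6.02 ± 0.17 (SE)). Ido1, a tryptophan-degrading enzyme (5.52), the serine protease inhibitor Serpina9 (5.51), the ubiquitin ligase Sh3rf2 (5.54), Lrrc10b (5.43) and Syndig1l (5.34), a relative of a synapse differentiation protein, were also higher in striatum. On the cortical side, Dkkl1 (-5.61), a relative of the Dickkopf Wnt inhibitors, Myoc, myocilin (-5.35), and the predicted protein-coding gene Gm11549 (-7.27) were among the 12 largest. Igfn1, named after its values were seen, had a median of 0.0689 CPM in striatum and 19.2 in cortex (-8.15). Of 6722 long noncoding RNAs tested, 764 were higher in striatum (11.4%) and 723 in cortex (10.8%), against 14.8% and 16.7% over all genes tested. By the gene types of the annotation, they were led by Ptprv (5.58), Six3os1, which lies next to Six3 (4.15), Gm39244 (3.21) and Gm10754 (3.18) in striatum. Whether Ptprv is noncoding was not examined beyond that type. C230057M02Rik (-3.03), 1700001L05Rik (-2.48), Gm12371 (-2.37) and M5C1000I18Rik (-2.3) led in cortex. Whether the counting used strand is not given in the sources used here, so reads of Six3os1 and of overlapping genes could not be told apart.

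Some abundant genes were level between the regions. Among the 200 most abundant genes, the smallest differences were those of Itm2b, Uchl1, Rps3a1, Rpl19 and Ywhae, with absolute log2 fold changes of at most 0.01. Ywhae, a 14-3-3 protein, had medians of 586 CPM in striatum and 574 in cortex. None of the 5 reference genes that the study used for qPCR was called (median -0.07), among them Gapdh (0.08 ± 0.06 (SE)) and Rpl13a (-0.16 ± 0.16 (SE)). Not every gene of this list was level, since in 1 of the 5 every striatal library lay above every cortical one. The largest difference of the 5 was that of Atp5b (0.25). In the other WT mice, which received IPTG, 1 of the 5 was called higher in striatum and 1 in cortex. In WT mice of 12 months, 2 were called higher in striatum and 3 in cortex. Htt, the gene that carries the Lac operators in the disease model (chr5:34761740-34912534, plus strand), ranged from 86.7 to 134 CPM (median, 109) in striatum and from 90.5 to 146 CPM (median, 124) in cortex. The ranges overlapped, 4 of 10 mice were higher in striatum, and the log2 fold change was -0.14 ± 0.09 (SE) with an adjusted p of 0.252.

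Transcript length was examined because the recovery of long and short transcripts can differ between RNA-seq libraries. Over 14623 genes with a mean of at least 0 on the log2 CPM scale, the log2 fold change and merged exon length had a Spearman rho of -0.03 across genes, which are not independent replicates. Within single mice rho lay between -0.277 and 0.304, so that the balance of long and short transcripts varied between mice without a common direction. The slope of log2 CPM on log2 length, taken as striatum minus cortex, was -0.0193 ± 0.130 (SD, n = 10) and below 0 in 6 of 10 mice, with p = 0.639 in an exact two-sided sign-flip permutation test. Single mice lay on both sides of 0. Median log2 fold changes ran from 0.03 for exon lengths up to 1000 bases to -0.01 above 8000 bases. With spline offsets for length in the fit, 5281 genes were higher in striatum and 5353 in cortex, and the share of calls higher in striatum moved from 47.0% to 49.7%. The GC share of transcripts had a rho of 0.06 with the log2 fold change across 14614 genes.

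**Figure D4:**
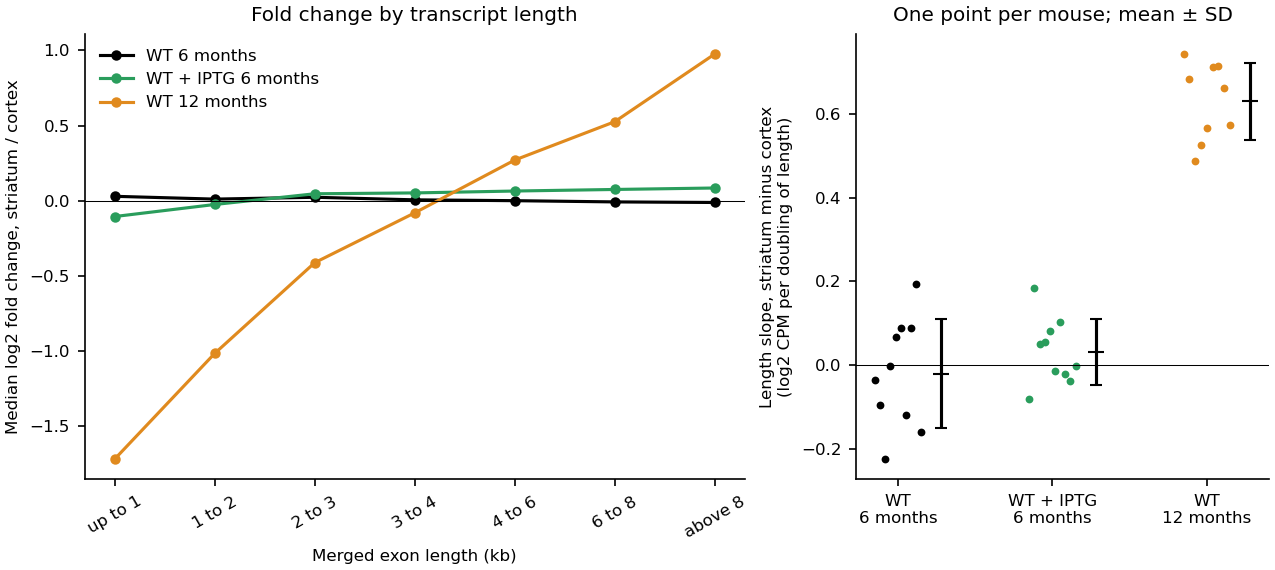
Left, median log2 fold change, striatum over cortex, of genes binned by merged exon length in kilobases, for WT and WT + IPTG mice of 6 months and WT mice of 12 months. Right, slope of log2 CPM per doubling of length, striatum minus cortex, with 1 point per mouse and mean ± SD: WT mice of 6 months scatter around 0 (-0.0193 ± 0.130) and all 9 mice of 12 months lie above it (0.629 ± 0.0925).

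The comparison was repeated in 10 other WT mice of 6 months in the same table that had received IPTG. There 5328 of 33703 genes were higher in striatum (15.8%) and 5201 in cortex (15.4%). Of the genes higher in striatum without IPTG, 3952 were called the same way in these mice, which is 80.0% of the first list and 74.2% of the second, and 6 were called the opposite way. Of those higher in cortex, 4324 were called the same way, 77.7% of the first list and 83.2% of the genes in the second that were tested in both sets, and 4 the opposite way. Among genes at least 4-fold apart, 511 of 601 striatal and 901 of 1045 cortical genes that could be tested were called again. Drd2 had a log2 fold change of 6.1, Penk of 4.72, Chat of 5.35, Vip of -5.21 and Mbp of 0.90 in the mice with IPTG. Slc17a7 (-5.3) and Tbr1 (-5.09) had values nearer to 0 than without IPTG. Across the 13434 better-expressed genes the log2 fold changes of both sets of mice had a Pearson r of 0.967 and a Spearman rho of 0.913, as a description. The difference in the region effect between the sets was itself tested, and edgeR called 0 of 35466 genes (0%), while DESeq2 called 38. In the edgeR test 3199 genes (9.02%) had an unadjusted p under 0.05. The smallest p-values in that test included Pmaip1, a BCL-2 family protein (-1.4 without and -0.64 with IPTG).

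**Figure D5:**
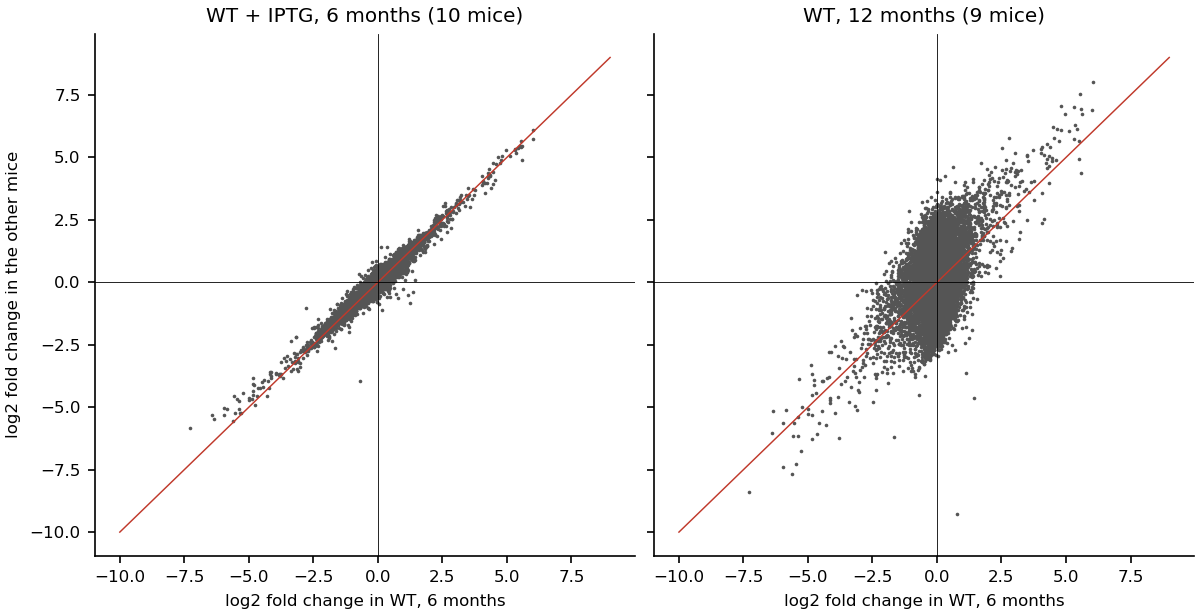
Log2 fold change, striatum over cortex, of 13434 genes in WT mice of 6 months (horizontal axes) against 10 WT + IPTG mice of the same age (left) and 9 WT mice of 12 months (right); each point is a gene and the red line marks equal values. Points follow the line on the left (Pearson r 0.967) and spread widely around 0 on the right (Pearson r 0.512).

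The region effect was also compared between females and males. The test of region by sex called 2 of 33399 genes (0.00599%), and 700 genes (2.10%) had an unadjusted p under 0.05. Ptgds, the prostaglandin D synthase of meninges and oligodendrocytes, had a log2 fold change of -0.68 in the 5 females and -1.67 in the 5 males, a difference of -0.99, males minus females. The call of Ptgds was lost under filterByExpr (adjusted p = 0.241), where edgeR called 0 genes, and its adjusted p was 3.26e-07 to 0.0318 in the other fits. The predicted gene Gm49361 was the other, at 0 to 1.05 CPM in striatum and 0 to 0.765 CPM in cortex, a level at which the fitted difference depends on the prior count. It was not called without the replicate block (adjusted p = 0.886) or by DESeq2.

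In 9 WT mice of 12 months that had both regions, 8067 of 32270 genes were higher in striatum (25%) and 8419 in cortex (26.1%). Age cannot be told apart from the table, since the ages were deposited separately and carry different batch labels, and the values are set side by side without a test. Of the genes called at 6 months, 2985 of those higher in striatum (60.5%, and 37.0% of the 12-month list) and 3027 of those higher in cortex (54.4% and 36.0%) were called the same way at 12 months, and 818 and 1331 the opposite way. Lists of spiny and cholinergic neurons and the shared cortical glutamatergic list kept the sign of their medians, for example 2.96 and 4.28 for shared spiny markers and -5.37 and -5.14 for cortical glutamatergic ones. Single genes with large values at both ages were Drd2 (6.03 and 8.04), Ppp1r1b (4.22 and 4.78), Slc17a7 (-6.41 and -6.05) and Tbr1 (-5.86 and -5.1). Smaller differences often did not match, and some lists turned. Cortical layer 4 markers went from 5 of 5 higher in cortex to 3 higher in striatum and 1 in cortex (medians -0.80 and 0.45), and the median of layers 2 and 3 was -1.31 and -0.33. Astrocyte genes were higher in striatum for 9 of 12 and in cortex for 2 at 12 months (median 0.59), and endothelial and pericyte genes for 7 and 2 of 10 (median 1.69), both the opposite of 6 months. Cux2 was at -2.58 and -0.29, Camk2a at -1.47 and 0.46, Htt at -0.14 and 2.05, and the short ribosomal gene Rpl13a at -0.16 and -2.72. At 12 months the log2 fold change moved with transcript length, with a rho of 0.475 across 14608 genes, a median of -1.72 up to 1000 bases and 0.98 above 8000 bases, and a slope difference of 0.629 ± 0.0925 (SD, n = 9; p = 0.0039 in the exact sign-flip test). Without a length term r was 0.512 between the ages, and with length offsets at 12 months it was 0.590, with 64.9% and 56.3% of the 6-month striatal and cortical calls called the same way.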

How the data were processed

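Total RNA of right striatum and right cortex was sequenced by the authors (NovaSeq 6000, paired-end reads). The authors deposited expected counts per gene, not normalized, in 1 table per age; genome build GRCm38 is named in the submitters' processing notes, and the aligner, counter and annotation are not given in the sources used here. Estimated counts were rounded to whole numbers. Names, positions and exon lengths came from the GENCODE annotation on GRCm38, and promoters from RefSeq on GRCm38.p6.

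Genes with at least 1 count were tested in R 4.3.3 by the quasi-likelihood test of edgeR 4.0.16, with TMM factors and mouse as a block, at an adjusted p under 0.05 and a difference of at least 20%. The mouse numbers in the labels pair the regions of an animal. Residuals of the same mouse correlated by a median of 0.224 (-0.232 to 0.508), with 7 of 10 above 0.1, against -0.013 (-0.603 to 0.602) for other mice, and 2 of 10 striatal libraries correlated best with the cortex of their own mouse. DESeq2 1.42.0, filterByExpr, other scalings, length and GC offsets, all libraries of 6 months in 1 fit, sexes apart and leaving out each mouse were alternatives. The scripts were tested on simulated data. No pair of libraries was a duplicate (lowest chi-square per degree of freedom, 12.5, over 90 pairs).

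The comparison, gene lists, tests and motifs were chosen with earlier results of these data known, from textbook markers. Named were the 12 protein-coding genes and 4 long noncoding RNAs with the largest fold change in each direction (mean of at least 1 log2 CPM, no overlap), the first 3 genes of each list and up to 4 more with large folds, the 5 most level of the 200 most abundant genes, the smallest p-values of each interaction test, and Htt. List members outside this rule, such as Meis2, Nrgn and Sfxn1, and Camp, Ngp and Igfn1 were named after their values were seen. Some genes that the rule names are not reported here. Replicates are separate mice.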

Additional observations from a re-analysis of the deposited data

Results flagged for a closer look

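A library was marked when its gap to the nearest other of its 10, divided by the range of the group, was above Dixon's 95% critical value, and chance marks about 1 group in 20. The striatum of male 5 was marked in most cases. It had the highest Slc17a7 (63.7 CPM), Neurod2 (2.36 CPM), Neurod6 (4.45 CPM), Bdnf (2.67 CPM) and Vip (5.01 CPM) of the striatal libraries, and its summed blood level was 475 CPM. The cortex of the same mouse had the highest cortical Bdnf (44.9 CPM). Gad2 was marked in the striatum of female 2 (297 CPM, the lowest) and in the cortex of female 3 (171 CPM, the highest). The cortex of male 3 was marked for its choroid plexus sum (173 CPM), and the cortex of male 4 for its blood sum (1773 CPM).

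Ptgds and Gm49361 were marked because the region effect differed between the sexes by the interaction test of edgeR's quasi-likelihood fit. The difference, males minus females, was -0.99 for Ptgds and -10.88 for Gm49361, each with an adjusted p of 0.0309. Gm49361 was at or near 0 in most libraries.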

How the results depend on the processing

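Genes called between striatum and cortex numbered 10499, with 10808 without the replicate block, 9929 by DESeq2 and 10862 with all 100 libraries of 6 months in 1 fit. Leaving out 1 mouse in turn, or male 4 and male 5 together with female 3 or male 3, gave 10063 to 10549 genes, with 4699 to 5320 higher in striatum, 5229 to 5505 higher in cortex and 1562 to 1661 at least 4-fold. The count at least 4-fold apart was 839 under filterByExpr, which tests fewer genes, against 1655, and the cause was not tested. At a bound of 2-fold, 4051 genes were called, 1749 higher in striatum and 2302 in cortex. For region by IPTG, where the main test called 0, length offsets gave 11 and DESeq2 38 genes. For region by sex, filterByExpr gave 0 genes and the fit without the replicate block 1, against 2; the cause was not tested. Scaling moved the share of calls higher in striatum between 46.2% (upper quartile) and 54.0% (total counts only). Of 313 named genes, 35 lost a call under some alternative and 5 changed sign: Oxt (-0.57 without female 3, male 4 and male 5), Gm49361 (-2.90 in males only), Gm28539 (-5.43 in males only), Eif4a-ps4 (0.15 in females only) and Gm26735 (0.30 with the length slope as a covariate). Leaving out the pairing by mouse moved no other count of calls by over 1.5 times. Depth limits the genes under about 1 CPM, whose fold changes depend on the prior count.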

Other observations

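The neutrophil granule genes Camp and Ngp, which are in no list, reached 48.0 and 54.0 CPM in the cortex of male 4. Their medians over the 10 cortical libraries were 0.0194 and 0.0568 CPM, and their highest striatal values were 0.244 and 0.569 CPM. Ttr, the transthyretin gene of the choroid plexus, reached 160.1 CPM in the cortex of male 3 against a cortical median of 11.01 CPM, and lay between 3.57 and 30.4 CPM in striatum.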
